A study of Homo sapiens with 20 samples.

Results

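The genes described here are the classical cadherins CDH1, CDH2, CDH3 and CDH11, the transition regulators SNAI1, TWIST1, TWIST2 and ZEB1, the mesenchymal filament gene VIM, and CTNNB1, which encodes beta-catenin. They were chosen by name, and a row of the deposited expression table was taken where its platform annotation held the symbol. Of the 10 genes, 9 were measured, each by a single row that carries no other symbol, out of 18384 features in all. TWIST2 was not analysed here. Levels are log2 expression values, so a difference of 1 is a doubling, and levels of different genes are not set against each other because each row has its own probes.

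The study used WM793, an established line from a vertical growth phase melanoma, and 4 lines made from it with constructs that the design text describes as overexpressing NME1, an enzyme that passes phosphate between nucleotides and is known for suppressing metastasis. Parent is WM793 itself, NME1-wild-type carries the wild-type construct, and NME1-E5A, NME1-K12Q and NME1-P96S carry mutant constructs. All 5 lines share the WM793 background and were grown for 3 days before total RNA was taken. Each line was run on 4 human exon arrays, 20 in total, described by the submitters as technical replicates. There is 1 line for each construct, so p-values measure only the spread between arrays of the same line. Neither the promoter of the constructs nor whether a line is a clone is given in the labels.

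Classical cadherins join neighbouring cells through calcium-dependent contacts, and their tails bind catenins, among them beta-catenin, which also acts with TCF and LEF factors in Wnt signalling. SNAI1 and ZEB1 are zinc finger repressors of CDH1, and TWIST1 is a basic helix-loop-helix factor of the same programme. In skin, E-cadherin, the product of CDH1, ties melanocytes to keratinocytes, and melanoma cells often carry N-cadherin, the product of CDH2, in its place. In the melanocyte lineage, SNAI2 and ZEB2 are known from the differentiated state, and ZEB1 and TWIST1 from a less differentiated one.

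SNAI1 and ZEB1 bind E-boxes, and the form searched for was CAGGTG, whose reverse complement is CACCTG, on both strands. The promoter table, from RefSeq on GRCh38.p14, holds windows of 300 bases, from 250 before to 50 after a transcription start. It held 12 windows, 7 of them of ZEB1, for 5 of the 10 genes, namely ZEB1, CDH2, VIM, CTNNB1 and TWIST2. It held none for CDH1, CDH3, CDH11, SNAI1 or TWIST1, so those promoters were not searched. The motif was in 2 of the 12, both of ZEB1, and in 20.6% of all 35116 windows of the table. Below are the 100 bases before those 2 starts, shown because they are the windows of these genes that hold the motif. Both lie on the plus strand and are written 5′ to 3′ with the motif in capitals.
ZEB1, chr10:31318317-31318416: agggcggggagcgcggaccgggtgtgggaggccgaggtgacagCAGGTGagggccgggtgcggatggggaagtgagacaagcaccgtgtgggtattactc
ZEB1, chr10:31319116-31319215: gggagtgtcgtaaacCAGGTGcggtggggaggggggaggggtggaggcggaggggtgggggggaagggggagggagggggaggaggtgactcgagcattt
In the first stretch the motif begins 57 bases before the start, and in the second 85 bases before it. A match of letters is a description and does not show that a factor binds there.

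Across the series, array medians lay between 6.27 and 6.50, and the interquartile range of an array's values, its spread, lay between 2.19 and 3.16. The narrowest arrays were, in the order of the lines, Parent replicate 2, NME1-K12Q replicate 2 and NME1-P96S replicate 3, and differences from Parent that rest on Parent replicate 2 are given with and without it. The row that holds NME1 and the NME1-NME2 readthrough stood at 9.53 ± 0.173 (SD, n = 4) in Parent. It was 0.28 higher, at 9.81 ± 0.0486, with the wild-type construct, which did not pass the test (limma, adjusted p = 0.997). All 4 NME1-wild-type arrays, from 9.75 to 9.86, lay above those of Parent, whose highest read 9.74. Arrays did not overlap for 0.827% of all features between NME1-wild-type and Parent. In NME1-E5A, NME1-K12Q and NME1-P96S the row was higher than in Parent by 0.26, 0.23 and 0.25, with adjusted p of 1, 1 and 0.85. The arrays of these mutants overlapped with those of Parent. A rise of this row was thus not called in any of the 4 lines. Of the melanocytic markers, 7 of 9 were measured. SOX10 lay between 9.20 and 9.66, S100B between 7.76 and 9.26, and MITF between 5.51 and 5.95. GPR143 lay between 4.86 and 5.84, PMEL between 4.38 and 5.42, TYRP1 between 3.71 and 4.90, and MLANA between 3.04 and 4.31. No detection calls come with the values. None of the measured markers of melanocytes, fibroblasts, keratinocytes, endothelium and leukocytes passed the test in any comparison.

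None of the 9 genes passed the test for a change between the lines. Each was compared between all 10 pairs of lines, between the 4 NME1 lines together and Parent, and between NME1-wild-type and the 3 mutants together. A gene was called changed at an adjusted p under 0.05 (limma, Benjamini-Hochberg over all features) and at least 1.5-fold. Of the 108 gene and comparison pairs, 0 were called, the smallest adjusted p was 0.85, and 3 had an unadjusted p under 0.05. The absolute log2 difference reached 0.29 at most, 1.22-fold, for TWIST1 in NME1-P96S against Parent.

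Few features of the array were called in the same comparisons. Against Parent, the share of all features called was 0.0326% in NME1-wild-type, 0.218% in NME1-E5A, 0.00544% in NME1-K12Q and 0.103% in NME1-P96S. NME1-wild-type differed in 0.207% of features from NME1-E5A, in 0.0381% from NME1-K12Q and in 0.201% from NME1-P96S. The share was 0.169% between NME1-E5A and NME1-K12Q, 0.239% between NME1-E5A and NME1-P96S and 0.277% between NME1-K12Q and NME1-P96S. It was 0.0109% for the 4 NME1 lines together against Parent and 0.0762% for NME1-wild-type against the 3 mutants together. With shares this low, 0 of 9 genes does not set these genes apart from the other features.

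The 95% intervals bound how large a change these arrays leave possible for each gene. Of the 36 differences of a gene in an NME1 line from Parent, 27 had an interval that lay inside 1.5-fold in either direction. The other 9 were those of CDH3 in all 4 NME1 lines, of ZEB1 in NME1-wild-type, NME1-K12Q and NME1-P96S, and of CTNNB1 in NME1-E5A and NME1-P96S. For those 9, a change of 1.5-fold is not excluded by the interval. CDH1 and CDH11 had means under 5 in every line, and CDH3 in the 4 NME1 lines. No detection calls come with the values. The intervals of these genes bound the readings, and whether so low a signal follows the RNA was not tested. The 4 comparisons share the Parent arrays, so the values of a gene in them move together with those arrays.

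**Figure D1:**
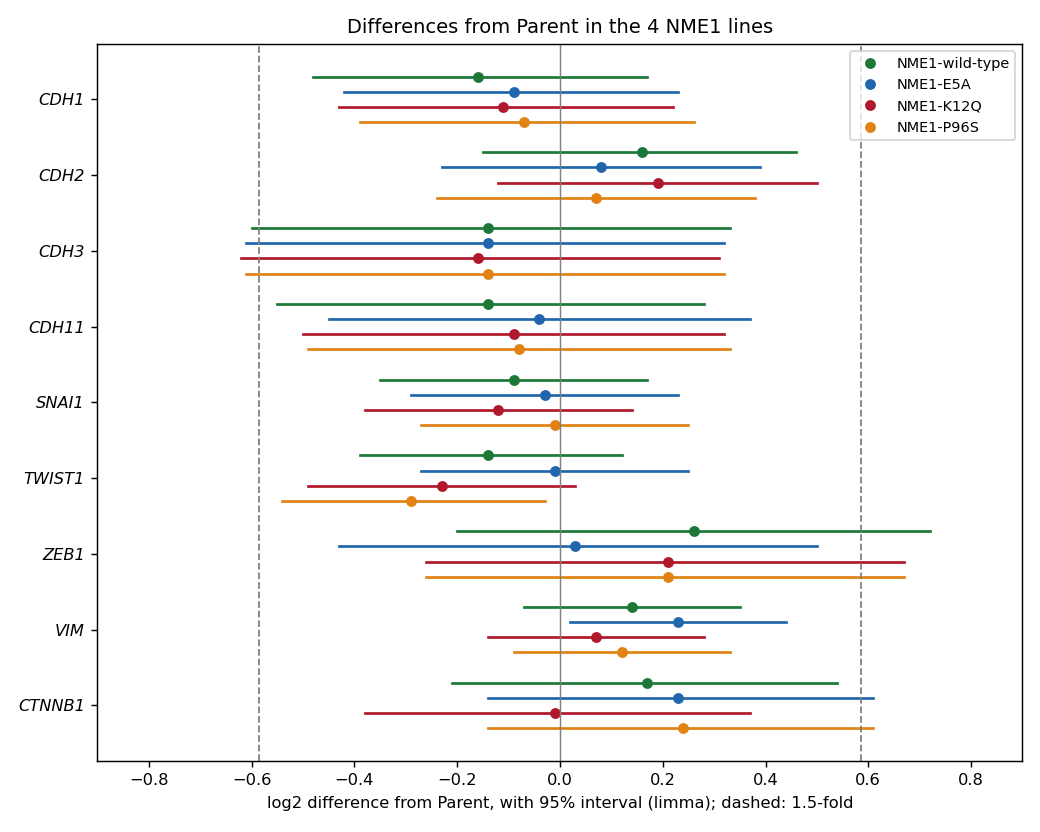
Log2 difference from Parent (horizontal axis) of each of the 9 genes (vertical axis) in the 4 NME1 lines. Points are limma estimates from 4 arrays a line, bars are 95% intervals and dashed lines mark 1.5-fold. Intervals cross a dashed line for CDH3 in every NME1 line, ZEB1 in all but NME1-E5A, and CTNNB1 in NME1-E5A and NME1-P96S. Those of TWIST1 in NME1-P96S and VIM in NME1-E5A miss 0.

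CDH1, the epithelial cadherin, read between 3.93 and 4.69 over the 20 arrays. It measured 4.13, 4.69, 4.39 and 4.14 in Parent and 4.15, 4.31, 4.19 and 4.08 in NME1-wild-type. It measured 4.14, 4.26, 4.22 and 4.37 in NME1-E5A, 4.13, 4.55, 4.20 and 4.04 in NME1-K12Q, and 4.12, 3.93, 4.65 and 4.37 in NME1-P96S. All 5 lines overlapped, and the 3 narrowest arrays gave the 3 highest values. The Parent mean was 4.34 ± 0.262 (SD, n = 4). That of NME1-wild-type was 4.18 ± 0.0987, and the log2 difference was -0.16 (SE 0.156, interval -0.48 to 0.17, limma adjusted p = 0.997). Leaving out Parent replicate 2, the highest of the 20, brought that difference to -0.04. It moved those in NME1-E5A, NME1-K12Q and NME1-P96S from -0.09, -0.11 and -0.07 to 0.03, 0.01 and 0.05. NME1-K12Q and NME1-P96S each hold a narrow array too, and without all 3 narrowest arrays their differences were -0.10 and -0.08.

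CDH2, the neural cadherin, read between 9.40 and 10.07 over the 20 arrays. It measured 9.99, 9.40, 9.64 and 9.86 in Parent and 9.75, 9.63, 10.05 and 10.07 in NME1-wild-type. It measured 9.68, 9.78, 9.90 and 9.84 in NME1-E5A, 9.82, 9.78, 10.01 and 10.01 in NME1-K12Q, and 9.95, 9.96, 9.42 and 9.83 in NME1-P96S. Every pair of lines overlapped, and the 2 lowest values were Parent replicate 2 and NME1-P96S replicate 3. The means ran from 9.72 ± 0.259 in Parent through 9.79 ± 0.251 in NME1-P96S, 9.80 ± 0.0969 in NME1-E5A and 9.88 ± 0.219 in NME1-wild-type to 9.91 ± 0.125 in NME1-K12Q. No neighbours in that order differed beyond their spread, and the largest difference from Parent was 0.19 in NME1-K12Q (SE 0.148, interval -0.12 to 0.50). Without Parent replicate 2 it was 0.08, and the difference in NME1-wild-type went from 0.16 to 0.05. Those in NME1-E5A and NME1-P96S went from 0.08 and 0.07 to -0.03 and -0.04. Without the 3 narrowest arrays, the difference was 0.12 in NME1-K12Q and 0.09 in NME1-P96S. Neither CDH1 nor CDH2 passed the test in any comparison, so no exchange of the epithelial for the neural cadherin, or the reverse, was called between these lines. CDH1 read under 5 on every array, and without detection calls its readings cannot show whether it was expressed.

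CDH3, the placental cadherin, and CDH11, the osteoblast cadherin, also read highest on Parent replicate 2. CDH3 had a mean of 5.13 ± 0.604 in Parent and between 4.97 and 4.99 in the 4 NME1 lines. Its Parent arrays read 4.78, 5.97, 5.13 and 4.62, and without replicate 2 their mean was 4.84. The log2 difference of CDH3 in NME1-wild-type was -0.14 over all arrays (interval -0.60 to 0.33) and 0.15 without the 3 narrowest arrays, and the same 0.15 without Parent replicate 2 alone. In the mutants, without that array, it was 0.14 in NME1-E5A, 0.13 in NME1-K12Q and 0.14 in NME1-P96S. The sign thus changed in all 4 lines. With the 3 narrowest arrays left out, the difference was 0.14 in NME1-E5A, 0.07 in NME1-K12Q and -0.03 in NME1-P96S. CDH11 had a mean of 4.53 ± 0.414 in Parent and between 4.39 and 4.48 in the NME1 lines. Its highest arrays were the 3 narrowest ones, at 5.06 in Parent, 4.94 in NME1-P96S and 4.93 in NME1-K12Q. Without Parent replicate 2 its differences went from -0.14 to 0.04 in NME1-wild-type and from -0.04 to 0.13 in NME1-E5A. They went from -0.09 to 0.09 in NME1-K12Q and from -0.08 to 0.10 in NME1-P96S. Without the 3 narrowest arrays, CDH11 differed by -0.08 in NME1-K12Q and by -0.07 in NME1-P96S.

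CTNNB1 encodes beta-catenin, which links the cadherin tail to alpha-catenin. It measured 10.55, 10, 10.61 and 10.96 in Parent and 10.86, 10.47, 10.79 and 10.66 in NME1-wild-type. It measured 10.83, 10.75, 10.94 and 10.53 in NME1-E5A, 10.62, 10.21, 10.63 and 10.64 in NME1-K12Q, and 11.02, 10.98, 10.41 and 10.64 in NME1-P96S. The 3 lowest of the 20 values came from the 3 narrowest arrays, and the lines overlapped. The log2 difference from Parent was 0.24 in NME1-P96S and 0.23 in NME1-E5A (SE 0.181, intervals -0.14 to 0.61, limma adjusted p = 0.85 and 1), 0.17 in NME1-wild-type and -0.01 in NME1-K12Q. Without Parent replicate 2 they were 0.06, 0.06, -0.01 and -0.18. Without Parent replicate 4, the highest Parent array for CTNNB1, the first 2 were both 0.38. Without the 3 narrowest arrays, the difference was 0.18 in NME1-P96S and -0.08 in NME1-K12Q.

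**Figure D2:**
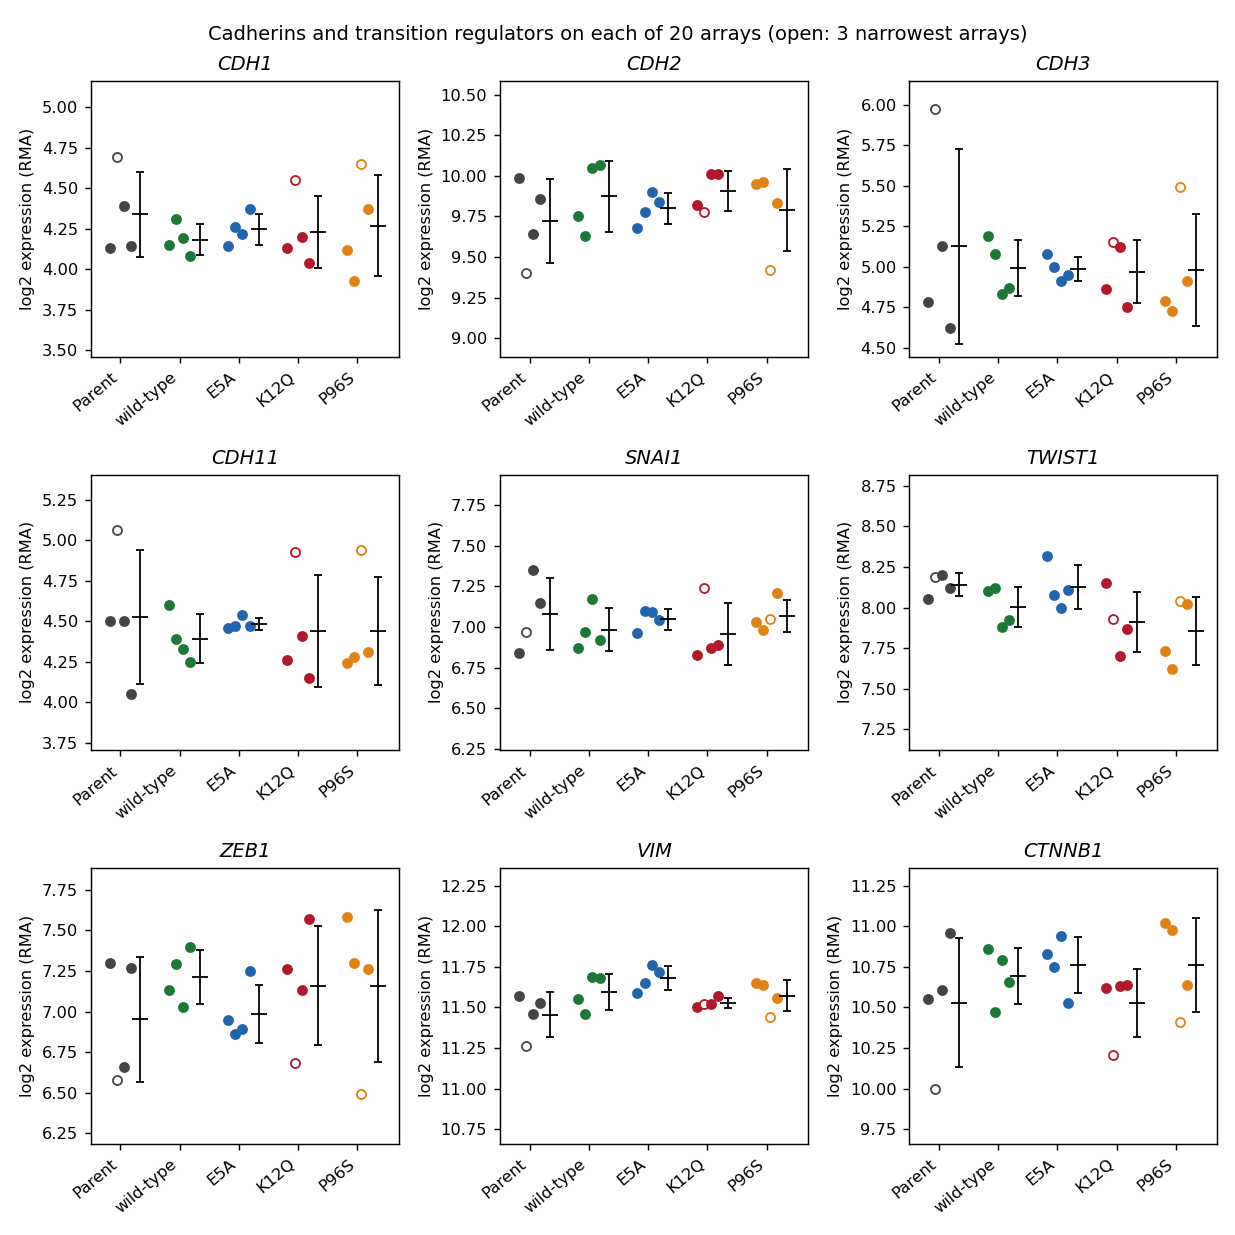
Log2 expression (vertical axis, each panel spanning the same range) of the 9 genes in the 5 lines, with 4 arrays a line as points, the mean and SD of the line beside them, and open points for the 3 arrays of narrowest spread. CDH1, CDH3 and CDH11 are highest on Parent replicate 2, an open point, and CDH2, VIM and CTNNB1 are lowest on it.

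SNAI1 encodes Snail, the zinc finger repressor of CDH1, and varied least between lines. Its line means lay between 6.96 ± 0.192 in NME1-K12Q and 7.08 ± 0.22 in Parent, a range of 0.12, while the median range over all features was 0.23. Its 20 arrays lay between 6.83 and 7.35. The interval of its difference in NME1-wild-type, -0.35 to 0.17 around -0.09, lay inside 1.5-fold, as did those in the 3 mutants.

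TWIST1, the basic helix-loop-helix regulator, had the largest range of line means of the 9 genes, 0.29. It measured 8.05, 8.19, 8.20 and 8.12 in Parent and 8.10, 8.12, 7.88 and 7.92 in NME1-wild-type. It measured 8.32, 8.08, 8.0 and 8.11 in NME1-E5A, 8.15, 7.93, 7.70 and 7.87 in NME1-K12Q, and 7.73, 7.62, 8.04 and 8.02 in NME1-P96S. All 4 NME1-P96S arrays lay below all 4 Parent arrays, while NME1-K12Q and NME1-wild-type overlapped with both. TWIST1 was 1 of 9 genes not overlapping between NME1-P96S and Parent, against 1.23% of all features. The means were 8.14 ± 0.0688 in Parent and 7.85 ± 0.208 in NME1-P96S, a log2 difference of -0.29 (SE 0.123, interval -0.54 to -0.03). Its unadjusted p was 0.031 and its adjusted p 0.85 (limma), where 3.14% of all features had an unadjusted p under 0.05.

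The order of the TWIST1 means was Parent, NME1-E5A at 8.13 ± 0.138, NME1-wild-type at 8.01 ± 0.121, NME1-K12Q at 7.91 ± 0.183 and NME1-P96S. Neighbours in this order did not differ beyond their spread. NME1-E5A and NME1-P96S differed by 0.27 (interval 0.02 to 0.53, unadjusted p = 0.0381, limma adjusted p = 1), with overlapping arrays, where 4.11% of all features had an unadjusted p under 0.05. NME1-P96S replicate 3, a narrow array, was its highest array for TWIST1, and without it the difference from Parent was -0.35 with an adjusted p of 0.148. Without NME1-P96S replicate 2 the difference was -0.21 and the adjusted p 1. Without the 3 narrowest arrays it was -0.33, and the adjusted p was 0.338.

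ZEB1, a zinc finger repressor of CDH1, spread widely within lines. Its means were 6.95 ± 0.385 in Parent, 6.99 ± 0.181 in NME1-E5A, 7.16 ± 0.37 in NME1-K12Q, 7.16 ± 0.465 in NME1-P96S and 7.21 ± 0.164 in NME1-wild-type. The Parent arrays read 7.30, 6.58, 6.66 and 7.27, and those of NME1-P96S 7.58, 7.30, 6.49 and 7.26, so that the arrays of the 2 lines covered much the same range. The difference in NME1-wild-type was 0.26 (SE 0.222, interval -0.20 to 0.72, limma adjusted p = 0.997). It was 0.14 without Parent replicate 2, 0.38 without Parent replicate 1 and 0.15 with the interquartile range of each array as a term. Without Parent replicate 2, the differences in NME1-K12Q and NME1-P96S both went from 0.21 to 0.08 and that in NME1-E5A from 0.03 to -0.09. In NME1-K12Q and NME1-P96S they were 0.24 and 0.30 without the 3 narrowest arrays, and 0.11 and -0.02 with the interquartile range term.

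VIM encodes vimentin, the intermediate filament of mesenchymal cells, and read between 11.26 and 11.76 over the 20 arrays. It measured 11.57, 11.26, 11.46 and 11.53 in Parent and 11.55, 11.46, 11.69 and 11.68 in NME1-wild-type. It measured 11.59, 11.65, 11.76 and 11.72 in NME1-E5A, 11.50, 11.52, 11.52 and 11.57 in NME1-K12Q, and 11.65, 11.64, 11.44 and 11.56 in NME1-P96S. All 4 NME1-E5A arrays lay above all 4 arrays of Parent and above all 4 of NME1-K12Q, and every other pair of lines overlapped. The 9 genes held 1 such gene in NME1-E5A against Parent, where 1.99% of all features did not overlap, and 1 in NME1-E5A against NME1-K12Q, where 3.54% did not. The VIM difference in NME1-E5A was 0.23 from Parent (SE 0.101, interval 0.02 to 0.44, unadjusted p = 0.036, limma adjusted p = 1). From NME1-K12Q it was 0.15 (interval -0.06 to 0.36). Without Parent replicate 2, the lowest array, the difference from Parent was 0.16 in NME1-E5A. It went from 0.14 to 0.08 in NME1-wild-type, from 0.07 to 0.01 in NME1-K12Q and from 0.12 to 0.05 in NME1-P96S. Without the 3 narrowest arrays it was 0.01 in NME1-K12Q and 0.10 in NME1-P96S. In NME1-E5A against Parent, 2.98% of all features had an unadjusted p under 0.05.

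In the other comparisons with Parent no gene of the 9 had arrays that did not overlap, against 0.827% of features in NME1-wild-type and 1.17% in NME1-K12Q. A moderated F test over the 5 lines called 0 of the 9 genes, against 0.582% of all features, and its smallest unadjusted p was 0.115, for TWIST1. Over the 9 genes, the median log2 difference from Parent was -0.09 in NME1-wild-type, -0.01 in NME1-E5A, -0.09 in NME1-K12Q and -0.01 in NME1-P96S. The medians of all features in the same order were -0.03, -0.04, -0.05 and -0.06. For the 4 NME1 lines together against Parent, TWIST1 differed by -0.17 (interval -0.37 to 0.04) and VIM by 0.14 (interval -0.03 to 0.31), both with an adjusted p of 0.944 (limma).

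The values of most of these genes moved with the spread of the array. CDH1, CDH3 and CDH11 read lower on arrays of wider interquartile range, with slopes per log2 unit of -0.76, -1.16 and -1.04. CDH2, CTNNB1, VIM and ZEB1 read higher on them, with slopes of 0.63, 0.88, 0.28 and 1.07. SNAI1, with a slope of -0.07, and TWIST1, with -0.28, moved less. With the interquartile range as a term in the limma model, the residual SD fell from 0.216 to 0.0906 for CDH1, from 0.292 to 0.116 for CDH11, from 0.262 to 0.132 for CTNNB1 and from 0.335 to 0.196 for ZEB1. It was lower for 8 of the 9 genes and for 16112 of all 18384 features, so these genes share this with most of the array. In that fit 0 of the 9 genes were called in any comparison, and the F test's smallest unadjusted p values were 0.0697 for VIM and 0.0758 for TWIST1 (adjusted p = 0.596 and 0.614).

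**Figure D3:**
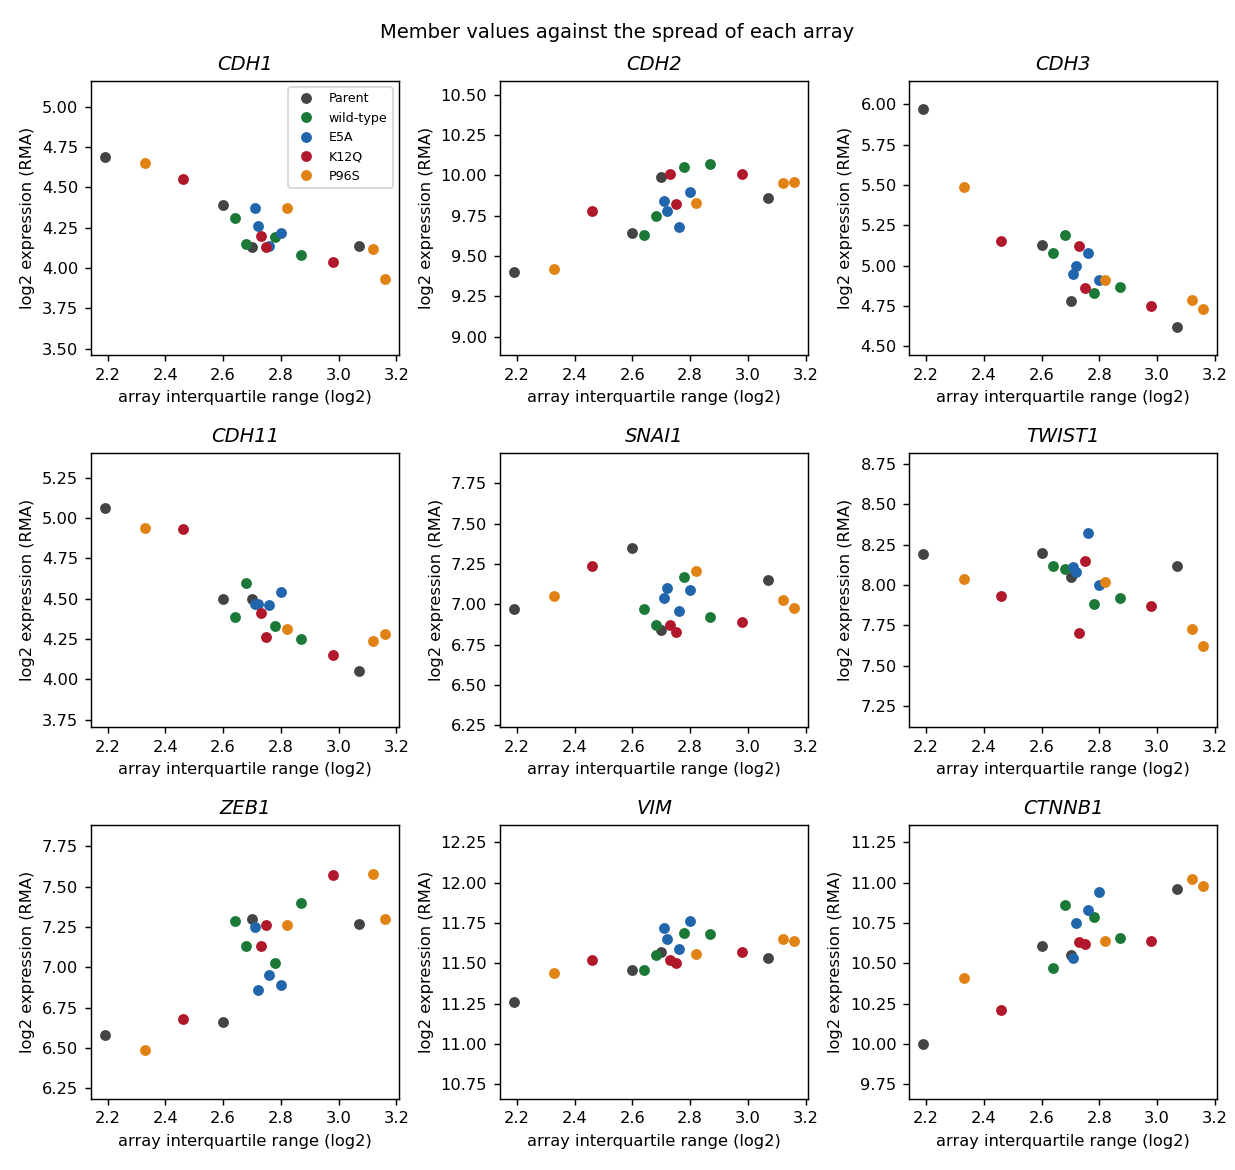
Log2 expression of the 9 genes (vertical axis) against the interquartile range of each array's log2 values (horizontal axis), 1 point for each of the 20 arrays, coloured by line. CDH1, CDH3 and CDH11 slope down, CDH2, ZEB1, VIM and CTNNB1 slope up, and the lines lie over one another.

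Over the 20 arrays, CTNNB1 was most like MCM6 (Pearson r = 0.97), DENND6A and SRSF3 (both 0.96), and 859 genes reached an r of 0.8 with it. TWIST1 was most like SHISA5 (0.89), LRP11 (0.88) and EFNA3 (0.84), and 8 genes reached 0.8. VIM was most like PTTG1IP (0.91), VPS35L (0.90) and TMOD3 (0.89), and 45 genes reached 0.8. These correlations describe 20 arrays that share 5 lines and the differences in spread. With the interquartile range removed from both genes, r was 0.88 for MCM6 with CTNNB1, 0.91 for SHISA5 with TWIST1 and 0.88 for PTTG1IP with VIM.

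Genes that act with these members were taken from 7 lists, of which 99 of 112 genes were measured. The lists were chosen with earlier results of these data known, so a call within them is a description and not independent support. Over all 12 comparisons, 6 calls were made on 2 genes, THY1 and DKK1. The share of all features called in a comparison lay between 0.00544% and 0.277%. Of the other cadherins, 0 of 24 were called in any line against Parent. CDH19, a Schwann cell and neural crest cadherin, had a mean of 7.36 ± 0.642 in Parent and of 7.68 ± 0.146 in NME1-wild-type, and the difference did not pass. Of 17 catenins and junction partners, 0 were called, and CTNNA1, the alpha-catenin that binds beta-catenin, stood at 9.53 ± 0.543 in Parent and 9.72 ± 0.103 in NME1-wild-type.

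Of 15 other transition regulators, 0 were called against Parent. SNAI2, the Slug repressor, had means of 10.92 ± 0.168 in Parent, 10.83 ± 0.0721 in NME1-wild-type, 10.76 ± 0.116 in NME1-E5A, 11.05 ± 0.0391 in NME1-K12Q and 10.78 ± 0.202 in NME1-P96S. The 4 NME1-K12Q arrays of SNAI2, from 10.99 to 11.08, lay above all arrays of NME1-wild-type, whose highest read 10.88, of NME1-E5A, at 10.86, and of NME1-P96S, at 10.91, and overlapped with Parent. Arrays did not overlap for 1.34%, 3.54% and 2.22% of all features in those 3 pairs, and none of the 3 differences of SNAI2 was called (unadjusted p = 0.0687, 0.021 and 0.0333, limma adjusted p = 1 in each). Of 14 epithelial genes, 0 were called, and the median difference was -0.15 in NME1-wild-type, -0.16 in NME1-E5A, -0.12 in NME1-K12Q and -0.18 in NME1-P96S. Of 10 genes of the beta-catenin destruction complex and its nuclear partners, 0 were called, with medians of 0.09, 0.09, 0.08 and 0.13 in the same order. The part of the array spread in these list medians was not tested.

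Of 10 other mesenchymal effectors, 1 fell in NME1-P96S against Parent, where 0.103% of all features were called. None was called in the other 3 lines. FN1, the matrix protein fibronectin, differed from Parent by 0.42 in NME1-E5A and by 0.10 to 0.18 in the others, and SPARC, a matrix glycoprotein, by 0.03 to 0.16, none of them called. The gene that fell was THY1, which encodes the surface glycoprotein CD90. THY1 measured 8.29, 8.16, 8.40 and 8.57 in Parent and 8.49, 8.56, 8.30 and 8.73 in NME1-wild-type. It measured 8.46, 8.41, 8.29 and 8.64 in NME1-E5A, 7.82, 7.76, 7.68 and 8.04 in NME1-K12Q, and 7.46, 7.50, 7.17 and 7.72 in NME1-P96S. The arrays of NME1-P96S and of NME1-K12Q lay below every array of the other 3 lines, and they overlapped with each other. Arrays did not overlap for 1.23%, 1.83% and 3.01% of all features between NME1-P96S and Parent, NME1-wild-type and NME1-E5A. For NME1-K12Q the shares were 1.17%, 1.34% and 3.54% in the same order. Replicate 4 was the highest in each line.

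THY1 was lower in NME1-P96S than in Parent by a log2 difference of -0.89 (SE 0.136, limma adjusted p = 0.0104). It was higher by 1.06 in NME1-wild-type than in NME1-P96S (adjusted p = 0.000398) and by 0.99 in NME1-E5A (adjusted p = 0.000903). The difference of NME1-K12Q from Parent was -0.53 and was not called (adjusted p = 0.794). These 3 calls held when any single array was left out. They were lost when the 2 lines alone were fitted, with adjusted p of 0.687, 0.0587 and 0.0626. NME1-wild-type exceeded the 3 mutants together by 0.61 (SE 0.111, adjusted p = 0.0298), a call lost without any 1 of 12 arrays. Those were Parent replicate 3, NME1-wild-type replicates 1, 2 and 4, replicates 1, 2 and 3 of NME1-E5A and of NME1-K12Q, and NME1-P96S replicates 1 and 2, with values of 0.54 to 0.62 and an adjusted p of up to 0.222. It was also lost with arrays centred on their medians (0.59, adjusted p = 0.137). Set against single lines, NME1-wild-type was higher by 0.07 than NME1-E5A, by 0.70 than NME1-K12Q and by 0.17 than Parent, none of them called. The pooled difference is therefore not one from each mutant.

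Of 9 beta-catenin target genes, 0 were called against Parent, CCND1 differing by 0.07 to 0.20 and MYC by 0.01 to 0.22. DKK1, a secreted Wnt inhibitor that is itself a target of beta-catenin, was called between NME1 lines. The calls were for NME1-wild-type and NME1-K12Q against NME1-P96S, where 0.201% and 0.277% of all features were called. DKK1 measured 9.72, 9.29, 9.37 and 9.05 in Parent and 9.93, 9.66, 9.32 and 9.12 in NME1-wild-type. It measured 9.54, 8.81, 8.93 and 8.77 in NME1-E5A, 9.88, 9.35, 9.46 and 9.35 in NME1-K12Q, and 8.97, 8.13, 7.95 and 7.94 in NME1-P96S. All NME1-P96S arrays lay below those of Parent, NME1-wild-type and NME1-K12Q. Arrays did not overlap for 1.23%, 1.83% and 2.22% of all features in those pairs. Replicate 1 was the highest in each line.

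DKK1 was higher by 1.26 in NME1-wild-type than in NME1-P96S (SE 0.234, limma adjusted p = 0.0217) and by 1.26 in NME1-K12Q (adjusted p = 0.0168). The first call was lost without NME1-wild-type replicate 1 (difference 1.12, adjusted p = 0.141) or 2 (1.21, 0.0969), or without NME1-P96S replicate 2 (1.22, 0.0925), 3 (1.16, 0.0547) or 4 (1.16, 0.115). The second was lost without NME1-K12Q replicate 1 (1.14, 0.0846) or 3 (1.28, 0.0566), or without NME1-P96S replicate 2 (1.22, 0.0643) or 4 (1.16, 0.0856). Both were lost when the 2 lines alone were fitted, with adjusted p of 0.339 and 0.278. Against Parent, DKK1 differed by -1.11 in NME1-P96S, with an adjusted p of 0.0971, and was not called. CTNNB1 differed from Parent by 0.24 in that line and was not called either.

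**Figure D4:**
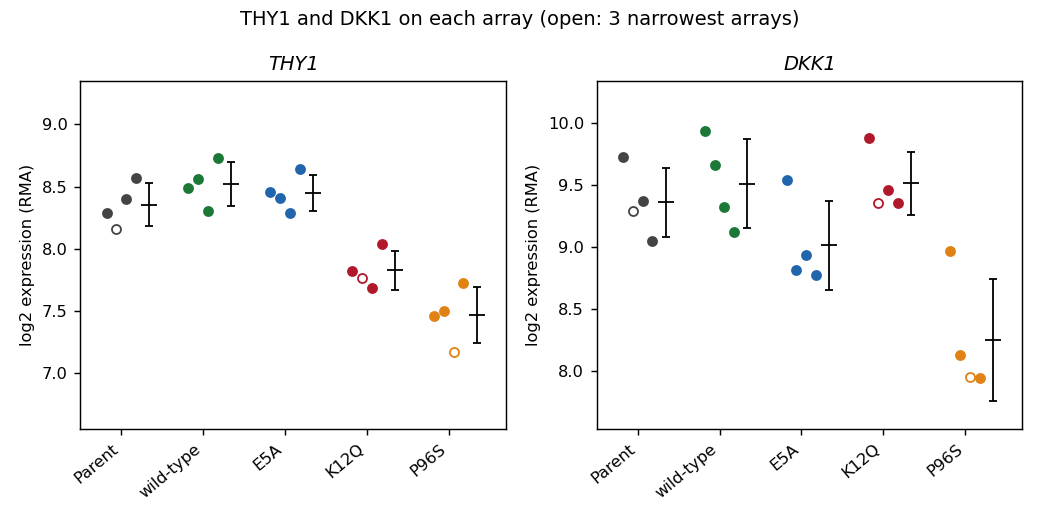
Log2 expression (vertical axis) of THY1 and DKK1 in the 5 lines, with 4 arrays a line as points, the mean and SD beside them, and open points for the 3 arrays of narrowest spread. THY1 is lower in NME1-K12Q and NME1-P96S than on any array of the other lines, and DKK1 has its lowest mean, 8.25, in NME1-P96S.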

How the data were processed

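Total RNA of the 5 lines was hybridised to Affymetrix Human Exon 1.0 ST arrays. The deposited log2 values were normalised by the authors with RMA, per the labels and design text. The submitters' processing notes also name limma, and neither build nor annotation release is given in the sources used here. The deposited values hold the differences in spread between arrays described above, and whether all arrays were normalised together is not known.

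Rows were named by platform annotation: 17608 of 18708 were listed, 14735 with a single symbol and 2873 with several. Where a gene had several rows, the one with the highest mean stood for it, which left out 324 rows. RefSeq names (GRCh38.p14) updated 0 symbols. No detection calls were used, and the number of arrays limits precision.

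limma 3.58.1 in R 4.3.3 (lmFit, eBayes) fitted a mean for each line over all 20 arrays, with two-sided tests adjusted by Benjamini-Hochberg over the 18384 features. The scripts were tested on simulated data. The members and gene lists were chosen with earlier results of these data known. Of each list, the 2 genes with the highest mean and the called genes could be named, and for likeness the 3 genes of highest r for TWIST1, VIM and CTNNB1. Alternatives were quantile normalisation, median centring, an interquartile range term, fits of the compared lines alone, a replicate block, a filter on a mean of 5, every row kept, no fold minimum, a mean-variance trend with robust estimation, treat against 1.5-fold, and leaving out each array or the 3 narrowest.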

Additional observations from a re-analysis of the deposited data

Results flagged for a closer look

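Of the 45 sets of 4 arrays formed by 9 genes and 5 lines, 4 held an array far from the other 3, by Dixon's ratio of the gap to the nearest neighbour over the range of the set, and chance gives about 1 such set in 20. CDH11 on NME1-E5A replicate 3 was 4.54, its nearest neighbour 4.47 (ratio 0.845). CDH11 on NME1-P96S replicate 3 was 4.94, its nearest neighbour 4.31 (ratio 0.906). SNAI1 on NME1-K12Q replicate 2 was 7.24, its nearest neighbour 6.89 (ratio 0.855). CTNNB1 on NME1-K12Q replicate 2 was 10.21, its nearest neighbour 10.62 (ratio 0.966). The last 3 of these values came from the 2 NME1 arrays of narrowest spread.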

How the results depend on the processing

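Each count of called members was 0 in all 399 recomputations, and the smallest adjusted p was 0.116 (limma), for TWIST1 in NME1-E5A against NME1-P96S without the 3 narrowest arrays. The 6 calls in the gene lists became 13 with the interquartile range term, 10 with a replicate block and 0 with treat, and ranged from 3 to 8 without single arrays, being 3 without NME1-P96S replicate 2. The labels do not say what a replicate number shares. Same-numbered arrays had residual correlations of -0.85 to 0.81, mean 0.17, with 25 of 40 pairs over 0.1, against a mean of -0.05 for other numbers, and 11 of 20 arrays correlated best with their own number. The numbers were therefore not taken as pairs, although the arrays hold a hint of it. With the replicate block all 6 list calls held, DKK1 at adjusted p of 4.3e-05 and 8.55e-05 and THY1 at 3.27e-05 to 0.00194, and 0 members were called. Array signal over background was not analysed here, and the cause of the changes below was not tested.

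Of 972 recomputed differences of a member from Parent, 53 changed sign, in 20 results, none of them called. Quantile normalisation gave 0.01 for CDH1 and 0.06 for CDH11 in NME1-E5A, and 0.10 and 0.09 in NME1-P96S. Median centring gave 0.01 for SNAI1 and 0.02 for TWIST1 in NME1-E5A, 0.04 for CTNNB1 in NME1-K12Q and 0.04 for SNAI1 in NME1-P96S. The interquartile range term gave 0.07 for CDH11, 0.02 for TWIST1 and -0.08 for ZEB1 in NME1-E5A, and 0.09 for CDH1, -0.06 for CDH2, 0.10 for CDH3, 0.14 for CDH11 and -0.02 for ZEB1 in NME1-P96S. Without the 3 narrowest arrays, CDH3, CDH11 and CTNNB1 were 0.15, 0.04 and -0.01 in NME1-wild-type, CDH1, CDH2, CDH3, CDH11 and ZEB1 were 0.03, -0.03, 0.14, 0.13 and -0.09 in NME1-E5A, and CDH3 was 0.07 in NME1-K12Q.

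Without single arrays, the difference in NME1-wild-type ranged from -0.31 to 0.15 for CDH3, -0.30 to 0.04 for CDH11 and -0.01 to 0.31 for CTNNB1. In NME1-E5A it ranged from -0.16 to 0.03 for CDH1, -0.03 to 0.17 for CDH2, -0.31 to 0.14 for CDH3, -0.20 to 0.13 for CDH11, -0.11 to 0.06 for SNAI1, -0.08 to 0.03 for TWIST1 and -0.09 to 0.15 for ZEB1. In NME1-K12Q it ranged from -0.22 to 0.01 for CDH1, -0.33 to 0.13 for CDH3, -0.25 to 0.09 for CDH11 and -0.18 to 0.14 for CTNNB1. In NME1-P96S it ranged from -0.20 to 0.05 for CDH1, -0.04 to 0.19 for CDH2, -0.31 to 0.14 for CDH3, -0.25 to 0.10 for CDH11 and -0.09 to 0.08 for SNAI1. The ends of changed sign came without Parent replicate 2 for the cadherins, for CTNNB1 in NME1-wild-type and for ZEB1, and without Parent replicate 3 for SNAI1.

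Counts of all features called moved more. Over the alternatives other than leaving out a single array, counts against Parent ranged from 0 to 11 in NME1-wild-type (6 as reported) and 2 to 67 in NME1-E5A (40). They ranged from 0 to 9 in NME1-K12Q (1), 0 to 37 in NME1-P96S (19) and 0 to 4 for the NME1 lines together (2). NME1-wild-type ranged from 2 to 60 against NME1-E5A (38), 0 to 21 against NME1-K12Q (7), 7 to 97 against NME1-P96S (37) and 2 to 18 against the mutants together (14). NME1-E5A ranged from 5 to 61 against NME1-K12Q (31) and 0 to 204 against NME1-P96S (44), and NME1-K12Q from 1 to 87 against NME1-P96S (51). The lowest counts came with treat or with the compared lines fitted alone, the highest with the interquartile range term or without the 3 narrowest arrays.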
